A study of Arvicanthis niloticus with 5 samples.

Results

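The genes of insulin and insulin-like growth factor (IGF) signalling were examined in eye RNA of the Nile rat, Arvicanthis niloticus, a day-active African rodent. The 36 members, from ligands and receptors to the kinases of the mTOR branch, were taken by gene symbol, without regard to case, from the mouse, rat and human names that an ortholog table gives to each assembled transcript. Of these, 29 were measured, on 31 transcripts, among 13982 named genes in all. Igf1, Igfbp6, Tsc1, Gsk3a, Grb10 and Shc1 had no transcript with a value that carried their symbol, and they and Akt1 were not analysed here.

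The labels list 5 samples of 1 group, all wild type and all eye tissue, with no treatment, age or time of day. Per the labels' protocols the RNA of 5 rats was pooled for the species' library, and the expression table holds 1 column of values. Whether that column covers all 5 samples is not stated; it is called the pool here. The levels below are therefore single values without replicate error, no test between groups or animals was possible, and brackets give 95% intervals for counting error alone. Levels are in FPKM (the fragments assigned to a transcript, per kilobase of its length and per 1000000 mapped), summed over the transcripts of a gene.

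Insulin and the IGFs bind receptor tyrosine kinases at the cell surface, and the activated receptors phosphorylate docking proteins of the IRS and SHC families. From these, one branch runs through PI 3-kinase, PDK1 and AKT to GSK3 and, by way of the TSC complex and the small GTPase RHEB, to mTOR; another runs through GRB2 and SOS to RAS and ERK. Secreted IGF-binding proteins hold IGFs outside the cell and set how much ligand reaches the receptor. In the eye, insulin and IGF signals are known to support the survival of photoreceptors and other retinal neurons and to drive growth and fibre differentiation in the lens.

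The labelled tissue was checked against defining genes. Lens genes (3 of 3 measured, 194 to 1263 FPKM), pigment epithelium genes (2 of 2, 152 and 238 FPKM), corneal genes (2 of 2, 55.1 and 91.0 FPKM) and the photoreceptor genes Gnat1 (344 FPKM) and Prph2 (328 FPKM) were all abundant. Skeletal muscle and blood were also present in the pool: 4 of 4 muscle markers lay between 15.3 and 127 FPKM and summed to 226 FPKM, and 2 of 2 globins summed to 270 FPKM. The part of these tissues in the levels below was not tested, and in a whole organ fewer cells of a type and less RNA per cell cannot be told apart. Of the 4 liver markers only Ttr was measured, at 102 FPKM, and of the 4 pancreatic islet markers only Sst, at 8.16 FPKM; Ttr is also made by the pigment epithelium and Sst by retinal amacrine cells.

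The measured members spread around the middle of the named genes, with Igfbp7 and Igfbp2 above all the others. All 29 measured members reached FPKM 1, as did 93.2% of all named genes. At FPKM 10, the count was 15 of 29 members (51.7%), against 34.0% of all named genes. The median member stood at 10.4 FPKM and the median named gene at 6.50 FPKM, and 17 members lay above that median. The median fell to 6.71 FPKM over the 24 members that are not binding proteins. Levels ran from 1.01 FPKM for Rictor to 106 FPKM for Igfbp7, a 105-fold range. The 3 members above the 90th percentile of named genes, which was 33.0 FPKM, were Igfbp7, Igfbp2 and Rheb. The 5 below the 25th percentile, 3.03 FPKM, were Irs2, Mtor, Sos1, Socs3 and Rictor. For Mtor this held under the symbol rule alone. With a further transcript under an older symbol counted, Mtor was at 4.65 FPKM (length-weighted mean) or 9.38 FPKM (sum).

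**Figure D1:**
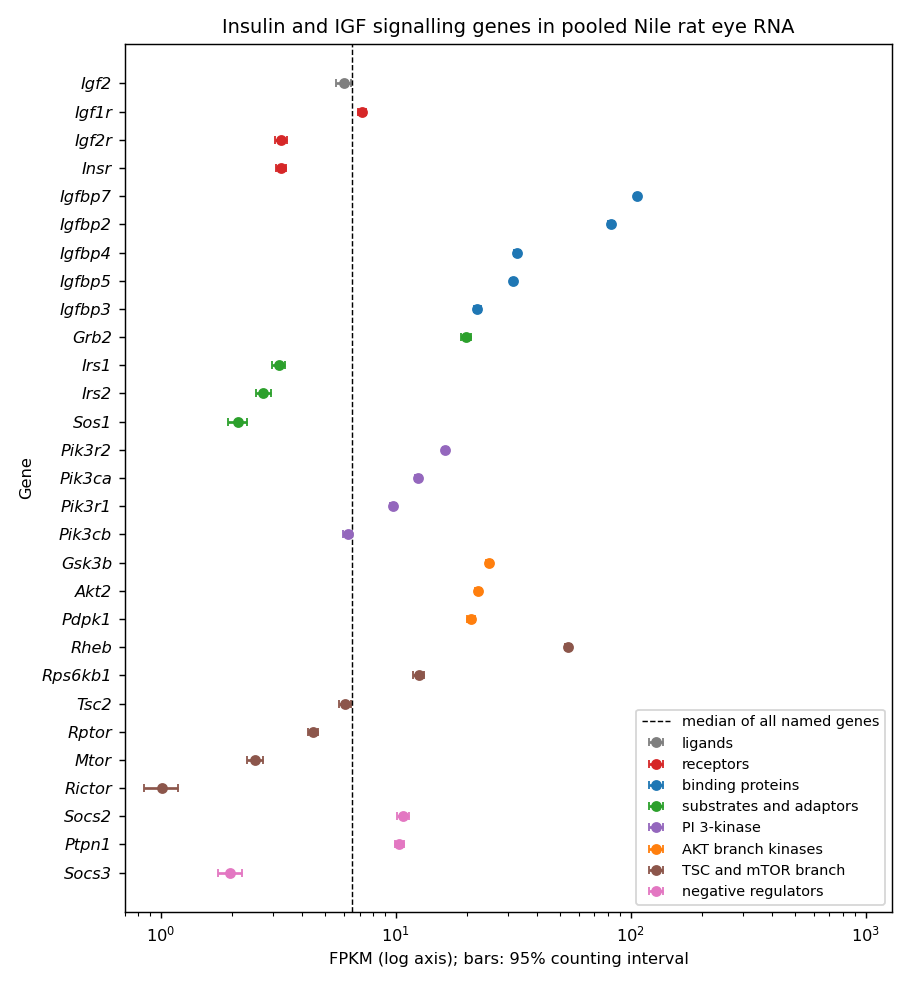
Level of each measured member in the eye pool on a log axis of FPKM, grouped by role, with points for the value, bars for the 95% counting interval and a dashed line at the median of all named genes (6.50 FPKM). All 5 binding proteins and all 3 measured AKT branch kinases lie to the right of the line, while Insr, Igf2r, Irs1, Irs2 and Sos1 lie to its left.

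**Figure D2:**
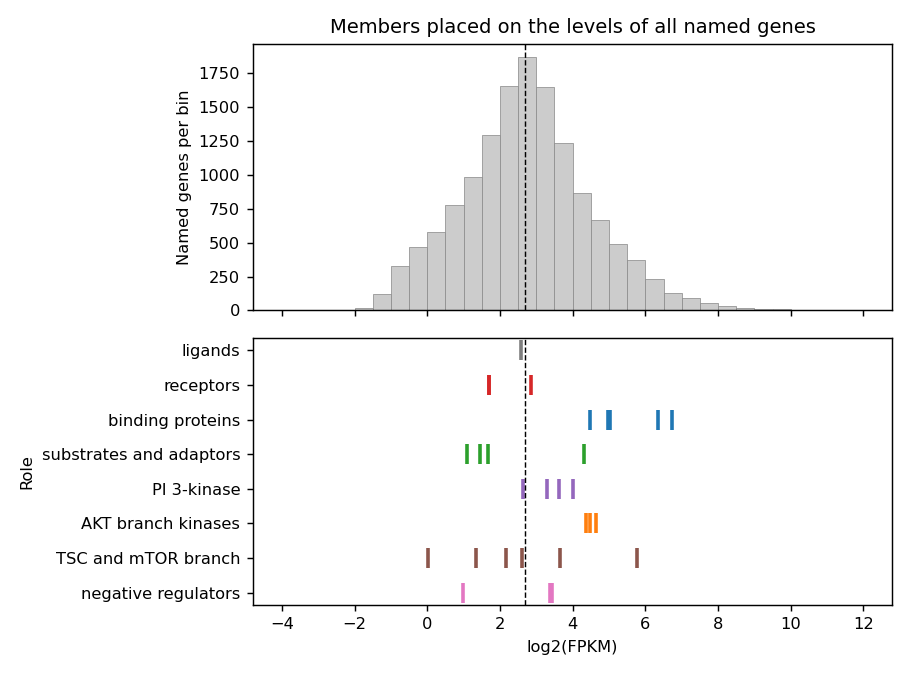
Upper panel, the number of named genes in bins of log2(FPKM), 0.5 wide; lower panel, 1 tick for each measured member by role on the same axis. The dashed line is the median of named genes; 17 members lie above it and 12 at or below it.

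Only 1 of the ligands could be measured. Igf2, the growth factor that is imprinted in rodents and strongly expressed in fetal tissue and in adult choroid plexus, stood at 5.98 FPKM [5.56 to 6.43] on 732.5 estimated fragments. This placed it above 46.8% of named genes, close to the middle. Its transcript carried the symbol in the rat column alone, and its human name was a clone name. No transcript carried the symbols of the insulin genes, Ins1 or Ins2, so local insulin RNA was not analysed here.

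Insr and Igf2r lay below the median of named genes and Igf1r just above it. Igf1r, the tyrosine kinase receptor for IGF1 and IGF2, was the highest of the 3 at 7.17 FPKM [6.90 to 7.46]. Insr, the insulin receptor, stood at 3.24 FPKM [3.09 to 3.41], and Igf2r, the mannose 6-phosphate receptor that takes IGF2 to the lysosome, at 3.25 FPKM [3.06 to 3.44]. Igf1r was thus 2.21-fold [2.08 to 2.35] above Insr per length, and the levels of Insr and Igf2r did not differ beyond counting error (log2 ratio of Igf2r to Insr 0.0021 [-0.11 to 0.11]). Each receptor rested on 1 transcript of at least 5416 nt and at least 1143 fragments. Igf1r is known to pair with Insr in hybrid receptors, which RNA levels do not show.

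Among the roles, the binding proteins held the most RNA of the measured members. The 5 measured members summed to 275 FPKM [272 to 277], or 51.0% of the FPKM of all measured members, against 2.54% for the 3 receptors. Per length, the binding proteins were 20.1-fold [19.5 to 20.7] above the receptors. In estimated fragments, with no division by length, the share of the binding proteins was 49.0% and that of the receptors 5.24%, so the contrast was smaller.

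Igfbp7 was the most abundant measured member, at 106 FPKM [105 to 107] on 24893 fragments. It is a secreted protein of blood vessels and matrix that binds IGFs weakly and insulin as well. Its level was above that of 97.9% of named genes, and its transcript carried the symbol in the rat column alone. Igfbp2, which prefers IGF2, followed at 82.2 FPKM [80.0 to 84.5], with the same symbol in all 3 species, on the shortest member transcript, 988 nt. Per length, Igfbp2 stood 13.7-fold [12.7 to 14.8] above Igf2.

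The other 3 binding proteins lay closer together. Igfbp4, an inhibitor of IGF action that is cleaved by the protease PAPP-A, was at 32.8 FPKM [31.8 to 33.8]. Igfbp5, which binds to matrix, was at 31.4 FPKM [30.8 to 32.0]. Their ratio was 1.04-fold, a log2 difference of 0.063 [0.012 to 0.11], just outside counting error. Igfbp3, the main carrier of IGFs in blood, was the lowest at 22.2 FPKM [21.5 to 23.0], 4.77-fold below Igfbp7.

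**Figure D3:**
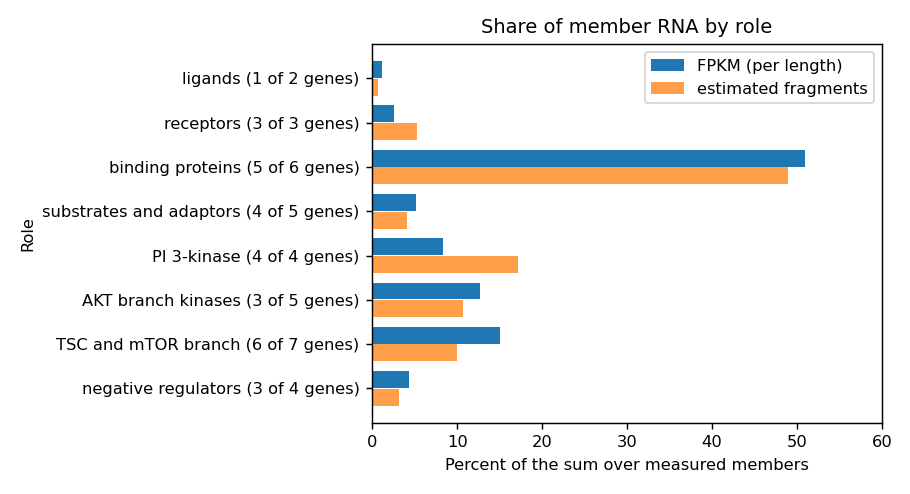
Percent of the sum over all measured members held by each role, once for FPKM (divided by length) and once for estimated fragments; the numbers of genes measured and listed stand beside each role. The binding proteins hold 51.0% of FPKM and 49.0% of fragments, and the PI 3-kinase genes, whose transcripts are long, hold 8.28% of FPKM and 17.1% of fragments.

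The docking proteins Irs1 and Irs2 lay below the median of named genes and the adaptor Grb2 above it. Irs1 stood at 3.17 FPKM [2.98 to 3.38] and Irs2 at 2.73 FPKM [2.54 to 2.92]; both carry the signal from the receptors to PI 3-kinase. Their log2 ratio was 0.22 [0.083 to 0.35], a 1.16-fold excess of Irs1. Insr and Igf1r together were 1.76-fold [1.67 to 1.87] above Irs1 and Irs2 together per length. Insr and Irs1 themselves did not differ beyond counting error (log2 ratio of Insr to Irs1 0.031 [-0.083 to 0.15]). Sos1, the exchange factor that loads RAS with GTP, was among the lowest members at 2.13 FPKM [1.93 to 2.33]. Grb2, the adaptor that brings SOS to the receptor complex, was at 19.9 FPKM [19.0 to 20.8], the sum of a transcript of 1485 nt at 10.01 FPKM and one of 1472 nt at 9.87 FPKM. Whether these are isoforms, copies or separate pieces of 1 mRNA was not tested. If they are separate pieces, the sum overstates the gene. Their length-weighted level would then give a role sum of 18.0 FPKM in place of 27.9 FPKM.

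PI 3-kinase, the lipid kinase that makes the membrane signal read by AKT, is a dimer of a catalytic and a regulatory subunit. All 4 listed subunits were measured and spanned a narrow range, 6.24 to 16.2 FPKM. Of the catalytic subunits, Pik3ca (p110 alpha, the main form for insulin signals) was at 12.4 FPKM [12.0 to 12.7] and Pik3cb (p110 beta) at 6.24 FPKM [5.97 to 6.52], a 1.98-fold [1.88 to 2.09] difference. Of the regulatory subunits, Pik3r2 (p85 beta) was at 16.2 FPKM [15.9 to 16.6] and Pik3r1 (p85 alpha) at 9.73 FPKM [9.42 to 10.1], a 1.67-fold [1.60 to 1.74] difference. The regulatory pair exceeded the catalytic pair 1.40-fold [1.35 to 1.44] per length. As a whole the PI 3-kinase genes summed to 44.6 FPKM, 3.26-fold [3.16 to 3.37] above the receptors.

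The kinases next in line were within 1.20-fold of each other with transcripts summed. Gsk3b, the glycogen synthase kinase that AKT switches off, was at 24.9 FPKM [24.1 to 25.8]. Akt2, the AKT form tied to glucose uptake, was at 22.3 FPKM [21.7 to 23.0]. Pdpk1, or PDK1, which phosphorylates AKT, was at 20.8 FPKM [19.98 to 21.6]. Their sum of 68.1 FPKM was 4.98-fold [4.82 to 5.15] above the receptors and 1.53-fold [1.49 to 1.56] above PI 3-kinase. The order against PI 3-kinase turned in estimated fragments, where PI 3-kinase was 1.60-fold higher, and the excess in FPKM was 1.24-fold with a length-weighted mean. Gsk3b was again a sum, of a transcript of 1801 nt at 14.2 FPKM named in mouse and human and one of 2699 nt at 10.7 FPKM named in rat. With its highest transcript alone, Gsk3b was at 14.2 FPKM, and with a length-weighted mean at 12.1 FPKM, below Akt2 and Pdpk1. The spread of the 3 genes was then 1.57-fold and 1.84-fold, so both their closeness and the first place of Gsk3b rested on the sum.

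The TSC and mTOR branch held both an abundant and the least abundant member. Rheb, the small GTPase that switches on mTOR complex 1, was at 54.2 FPKM [52.7 to 55.8], the third highest member. Tsc2 (tuberin), which turns RHEB off, was at 6.07 FPKM [5.73 to 6.43], so Rheb was 8.93-fold [8.38 to 9.52] above it per length. Rps6kb1, the S6 kinase that mTOR complex 1 activates, was at 12.5 FPKM [11.9 to 13.1].

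Mtor, Rptor and Rictor were below the median of named genes under the symbol rule. Mtor itself was at 2.52 FPKM [2.33 to 2.73]. Rptor (raptor, which defines mTOR complex 1) was at 4.44 FPKM [4.23 to 4.66] and Rictor (which defines complex 2) at 1.01 FPKM [0.850 to 1.18]. Rptor was thus 4.42-fold [3.73 to 5.23] above Rictor in FPKM, and 11.5-fold above it in estimated fragments, which are not scaled for the longer transcript of Rptor. Rictor rested on 147.5 fragments, the fewest of any member, on a transcript of 2257 nt named in mouse alone, and its interval spans FPKM 1.

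The level of Mtor depended on which transcripts were counted. Its transcript of 3871 nt carried Mtor in mouse and Frap1, an older symbol of the same gene, in rat. A further transcript of 3730 nt carried FRAP1 in human only and stood at 6.86 FPKM [6.53 to 7.20], 2.72-fold above the first. The rule on symbols leaves it out. With both counted, Mtor was at 9.38 FPKM as a sum and 4.65 FPKM as a length-weighted mean, over 7601 nt together. The coding sequences of mTOR, IGF2R, tuberin, rictor and SOS1 are known to be longer than the transcripts that carried these symbols here, so any other pieces of these mRNAs may stand under no symbol.

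Negative regulators of the pathway were measured for 3 of 4 genes. Ptpn1 (PTP1B), the phosphatase that removes phosphate from the insulin receptor, was at 10.4 FPKM [9.88 to 10.8] and 3.19-fold [2.98 to 3.41] above Insr per length. Socs2, an inhibitor of growth hormone signals upstream of IGF1, was at 10.7 FPKM [10.1 to 11.4]. Socs3, which cytokines induce and which binds the insulin receptor and IRS proteins, was at 1.96 FPKM [1.74 to 2.21]. Socs2 exceeded Socs3 5.47-fold [4.79 to 6.24] in FPKM and 3.60-fold in estimated fragments.

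Related members were set against each other in 6 of 10 listed pairs; Igf1 with Igf2, Akt1 with Akt2, Tsc1 with Tsc2 and Gsk3a with Gsk3b lacked a partner. In all 6 the counting interval of the log2 ratio left out 0, and the first-named gene was higher in 4. The ratios ran from -1.14 for Insr over Igf1r to 2.45 for Socs2 over Socs3. Along the whole order of 29 levels, 10 of the 28 steps between neighbours were within counting error. Among them were Akt2 with Igfbp3, Pdpk1 with Grb2, Rps6kb1 with Pik3ca, Pik3cb with Tsc2, Tsc2 with Igf2 and Irs2 with Mtor. The steps of Pdpk1 with Grb2 and Irs2 with Mtor depended on how transcripts were counted. With a length-weighted mean, Grb2 was at 9.94 FPKM, and Mtor with its older symbol added was at 4.65 FPKM.

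**Figure D4:**
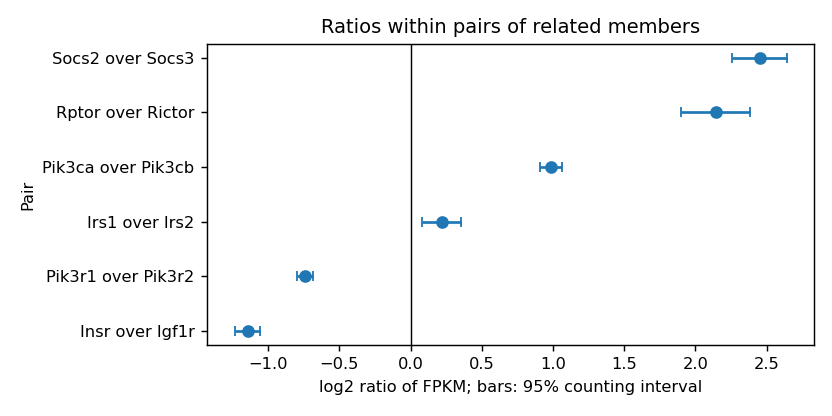
Log2 ratio of FPKM within each of the 6 measured pairs of related members, with 95% counting intervals; the vertical line marks equal levels. Socs2 over Socs3 (2.45) and Rptor over Rictor (2.14) are farthest from 0, with intervals that overlap, and Irs1 over Irs2 (0.22) is the closest to 0.

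Across the 29 members, level and transcript length ran in opposite directions (Spearman's rho -0.31 over genes, which share 1 library and are not replicates), while over all named genes rho was 0.16. Member transcripts were longer than usual, with a median of 3236 nt for the longest transcript of a gene against 2282 nt over named genes. The half-widths of the counting intervals were between 1.24% and 16.5% of the level. The symbol was found in all 3 species for 10 members, in 2 species for 13 and in a single species for 6, which were Igf2, Igfbp7, Pik3ca, Tsc2, Mtor and Rictor. Estimated fragments were not whole for 16 members, as happens where fragments are divided between transcripts.

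Of 67 other genes of the pathway, 55 were measured. Of these, 50 reached FPKM 1, as did 93.2% of all named genes, and 21 reached FPKM 10, as did 34.0% of all named genes. Their median was 6.98 FPKM. The highest were Rps6, the ribosomal protein that S6 kinase phosphorylates, at 525 FPKM, Htra1, a secreted protease that can cleave IGF-binding proteins, at 139 FPKM, and Mapk3 (ERK1) at 48.1 FPKM. Htra1 thus lay above every measured binding protein in FPKM. In estimated fragments, which are not scaled for length, Igfbp7 was higher, at 24893 against 19676.5 for Htra1. The lowest value was that of Irs3, 0.550 FPKM [0.237 to 1.08], on 8 fragments and a transcript of 224 nt. With an interval so wide, its last place is not beyond counting error.

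By group, the RAS to ERK genes (9 of 10 measured) had a median of 20.3 FPKM and 7 reached FPKM 10, and the mTOR partners and translation factors (10 of 12) had a median of 13.2 FPKM with 9 at FPKM 10 or more. The 7 measured further substrates and adaptors had a median of 5.21 FPKM, the 4 further PI 3-kinase and AKT genes 5.66 FPKM and the 4 FOXO transcription factors, which AKT keeps out of the nucleus, 8.32 FPKM. The group of 11 phosphatases and inhibitors had a median of 3.15 FPKM, and 1 of them reached FPKM 10. This group leaves out the phosphatase Ptpn11, which was counted with the substrates and adaptors and stood higher, at 26.6 FPKM. Of all named genes, 34.0% reached FPKM 10. The 3 measured genes of glucose uptake and glycogen lay between 2.45 and 6.74 FPKM.

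The 6 measured further genes of IGF binding and cleavage had a median of 1.40 FPKM, and Htra1 was the 1 among them at FPKM 10 or more. The 5 other pathway genes below FPKM 1 were named after their values were seen. They included Insrr (the insulin receptor-related receptor, 0.964 FPKM [0.819 to 1.13]) and Inpp5d (the lipid phosphatase SHIP1 of blood cells, 0.897 FPKM [0.735 to 1.08]). The others were Pappa2 (0.648 FPKM), Pappa (PAPP-A, 0.595 FPKM) and Irs3. The intervals of Insrr, Inpp5d and Irs3 span FPKM 1. Pappa and Pappa2 rested on transcripts of 569 and 784 nt with 22 and 33 fragments, so their counting intervals were wide, 0.373 to 0.901 FPKM for Pappa and 0.446 to 0.910 FPKM for Pappa2.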

How the data were processed

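Eye RNA of Nile rats was sequenced, and 1 table for the whole series was used. Per the file headers, the authors deposited for each of 124439 transcripts an FPKM value, an estimated count of fragments and a length. These estimated counts, as deposited by the authors, need not be whole and are not scaled for length or depth. The header states 64967222 mapped fragments; the estimated counts sum to 66703011. FPKM equals count over length over the stated total, within a relative difference of 1.03e-07. Bowtie was used, per the submitters' processing notes; no version, assembler or genome build is given in the sources used here, and no coordinates are reported. Names came from the deposited ortholog table; a background gene took its first symbol in the order mouse, rat, human.

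Gene levels are sums of FPKM. Levels carry 95% intervals by the Fay-Feuer gamma method (exact Poisson for 1 transcript), and log2 ratios carry delta-method ones. For some genes and ratios, they were tested on counts simulated under the same Poisson model that they assume. That test says nothing on other sources of error. The intervals cover counting error only, without variation between animals, PCR copies or the division of fragments between transcripts. A count of 0 on 1000 nt allows up to 3 fragments, or 0.0462 FPKM. All 36 member symbols occur in the Nile rat RefSeq annotation. All members are named. Of the other pathway genes the rule names the 3 highest and the lowest. Ptpn11, and 4 more genes below FPKM 1, were named after their values were seen. Members and lists were chosen with earlier results of these data known. Alternatives were other ways to combine, name and filter transcripts, other thresholds, a pseudocount of 1, fragments and rescaling. The tools were SciPy 1.17.1, pandas 2.3.3, NumPy 2.4.6 and Matplotlib 3.10.9 under Python 3.11.15.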

Additional observations from a re-analysis of the deposited data

Results flagged for a closer look

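A large signal lay outside the named genes, in data the comparisons left aside. It came from transcripts that carried no gene symbol and held 52.8% of all estimated fragments. These 108985 transcripts had a median length of 347 nt. Whether any of them belong to the members that were not measured, or are further pieces of those that were, was not tested.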

How the results depend on the processing

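The number of members at FPKM 1 or more, the number at FPKM 10 or more and the number of pairs with the first member higher stayed within 1.5 times their values under every alternative that was run, except that 9 members reached FPKM 20. The share of all named genes at FPKM 20 was not computed, so that count has no background beside it. No pair changed direction, but in estimated fragments 5 of the 6 log2 ratios moved beyond their counting interval. Insr over Igf1r moved to -0.68, Pik3ca over Pik3cb to 1.12, Pik3r1 over Pik3r2 to -1.01, Rptor over Rictor to 3.52 and Socs2 over Socs3 to 1.85. Socs2 over Socs3 was then no longer the widest. A pseudocount of 1 also moved some ratios beyond their interval, toward 0. These were Insr over Igf1r (-0.945), Pik3ca over Pik3cb (0.885), Rptor over Rictor (1.44) and Socs2 over Socs3 (1.99). With the highest transcript of a gene, the substrates and adaptors summed to 18.0 and the AKT branch kinases to 57.3 FPKM, and with a length-weighted mean to 18.0 and 55.2 FPKM. With mouse names only, 23 members were measured, with a median of 9.73 FPKM, and the sums were 137 FPKM for binding proteins, 32.2 for PI 3-kinase, 35.0 for AKT branch kinases and 74.7 for the TSC and mTOR branch; fewer genes were counted. With names that do not differ between species, the TSC and mTOR branch summed to 78.2 FPKM. With older symbols added, an alternative chosen after seeing the data, it summed to 87.6 FPKM. Rescaled to a total of 1000000, the median member was at 7.55. In estimated fragments, another unit, the median member had 1910 fragments, and the sums were 732.5 for ligands, 5286 for receptors, 49404 for binding proteins, 4144 for substrates and adaptors, 17293 for PI 3-kinase, 10793 for AKT branch kinases, 10079 for the TSC and mTOR branch and 3136 for negative regulators. Leaving out transcripts under 500 nt or adding those that share an Ensembl identifier changed no member. No paired analysis was possible because the table has 1 column of values and the labels 1 group; for the same reason no sample could be left out.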
